A study of Mus musculus with 40 samples.

Results

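*Ms4a4b*, *Ms4a4c* and *Ms4a6b* are 3 neighboring genes of the mouse MS4A family, and they were taken by their symbols from the 21950 genes of an RNA-seq table of T cells. They were chosen by the measured level of *Ms4a4b*, which falls when iTregs are restimulated and is restored by 2 inhibitors of calcium signaling, so for all 3 genes the values in restimulated and inhibitor-treated iTregs are given as a description with no test. The other comparisons were not used for the choice, although the resting iTreg libraries were.

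The table holds 24 libraries in 8 groups of 3 replicates, all from mouse CD4+ T cells of the spleen, made with SMART-seq2, a protocol that amplifies full-length cDNA and keeps neither strand nor molecule tags. Resting and activated Tconvs (conventional T cells) and resting and activated tTregs (regulatory T cells from the thymus, labelled nTreg) came from Foxp3-GFP reporter mice of 2 to 4 months. iTregs were induced from naive CD4+ T cells of 6-week-old Foxp3-GFP or Foxp3-RFP mice for 4 days with anti-CD3, anti-CD28, IL-2 and 2 ng per ml TGF-β, sorted on the reporter and rested for 1 day with IL-2. The remaining groups are iTregs restimulated with anti-CD3 and anti-CD28, alone, with an ORAI inhibitor, or with CsA. The study used CM-4620 as its inhibitor of the ORAI channel in these experiments, while the label names only the target. The label of the CsA libraries does not say that the cells were restimulated, which is taken from the study. The duration of activation before RNA-seq is not given in the sources used here, and nothing says whether replicates came from separate mice, so p-values measure the spread between these libraries. iTregs differ from Tconvs and tTregs in the age of the mice and in the days of culture, and these cannot be told apart from the cell type.

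MS4A proteins cross the membrane 4 times, as CD20, the product of *Ms4a1* and the best known member of the family, does on B cells. Several members act beside other receptors in the membrane rather than as receptors of their own: CD20 lies beside the B cell receptor, and MS4A2 is the β chain of the high-affinity IgE receptor of mast cells. MS4A4B is found on naive and Th1 cells, where it is known to associate with GITR, a costimulatory receptor of the TNF receptor family, and to modulate the activation of T cells. MS4A4C and MS4A6B are its close relatives on lymphoid cells.

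All 3 genes lie on the plus strand of chromosome 19 within 126 kb (GRCm38, GENCODE). *Ms4a4c* runs from 11404770 to 11427246, *Ms4a4b* from 11443553 to 11467055 and *Ms4a6b* from 11516512 to 11531256, in a cluster of 19 *Ms4a* genes between 10962293 and 11640851. None of the exon bases of *Ms4a4b* lies in an exon of another gene, and 1.6% and 0.424% of those of *Ms4a4c* and *Ms4a6b* do. The longest coding transcripts of GENCODE were searched for stretches of 50 bases found letter for letter in a transcript of another gene. These were 4.19%, 8.48% and 5.89% of positions in *Ms4a4b*, *Ms4a4c* and *Ms4a6b*, so a small part of the reads of each gene could have been placed on a relative. *Ms4a4c* had only 0.832 normalized counts per 100 of *Ms4a4b* in resting Tconvs. Reads of an abundant relative could thus be a larger part of its level, which was not tested. *Ms4a4b* and *Ms4a4c* are alike just before their starts and are shown because their levels respond differently below. Their RefSeq promoters (GRCm38.p6, plus strand, 240 bases, leaving out the last 10 before the start) are given 5′ to 3′, with each GGAAA, the core of NFAT sites, in capitals, at chr19:11443308-11443547 for *Ms4a4b* and chr19:11407411-11407650 for *Ms4a4c*.
Ms4a4b: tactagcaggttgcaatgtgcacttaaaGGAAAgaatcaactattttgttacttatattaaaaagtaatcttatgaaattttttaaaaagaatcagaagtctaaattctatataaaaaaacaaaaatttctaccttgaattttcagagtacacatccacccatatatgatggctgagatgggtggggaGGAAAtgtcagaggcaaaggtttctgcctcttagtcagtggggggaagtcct
Ms4a4c: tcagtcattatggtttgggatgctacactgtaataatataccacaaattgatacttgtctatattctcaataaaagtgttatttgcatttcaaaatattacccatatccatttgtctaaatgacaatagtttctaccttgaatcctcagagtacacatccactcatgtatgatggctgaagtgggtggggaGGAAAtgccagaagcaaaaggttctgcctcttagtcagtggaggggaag

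In the 250 bases before the start, *Ms4a4b* and *Ms4a4c* matched at 70.8% of aligned positions, and at 83.7% in the last 100 bases. *Ms4a6b* matched them at 48.1% and 53% of positions. Of the 250 bases of its window 106 lie in annotated exons, against 5 for *Ms4a4b* and 0 for *Ms4a4c*. GGAAA, searched on both strands, was found in *Ms4a4b* at 222 and 62 bases before the start, in *Ms4a4c* at 59 bases, inside the stretch that both genes share, and not in the window of *Ms4a6b*. It occurs in 55.6% of the 32851 RefSeq promoters, so its presence here is common. Of the other motifs searched on both strands, CACCC (KLF factors, in 52% of all promoters) was found 2 times in *Ms4a4b*, 1 time in *Ms4a4c* and 2 times in *Ms4a6b*, and TATAAA (the TATA box, in 12.4%) was found in *Ms4a4b* alone, 140 bases before the start. TGANTCA (AP-1, in 6.75%), the core of the ISRE (in 2.98%), TTCNNNGAA (STAT, in 7.02%), TGTTTAC (forkhead factors, in 3.17%) and CCGGAAG (ETS, in 6.91%) were in none of the 3 windows, which says only that these letters are not there. The starts in RefSeq and GENCODE differ, and that of *Ms4a4c* lies inside the gene as GENCODE draws it.

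Values are normalized counts, reads per gene divided by one factor per library. Depth ran from 5256800 to 15685234 reads on genes, with no tTreg library above 9893053. A floor of 3 reads was worth 2.12 to 5.45 normalized counts. The 4 T cell markers *Cd3d*, *Cd3e*, *Cd3g* and *Cd4* summed to at least 13434 in every library. The Treg markers *Foxp3*, *Il2ra*, *Ctla4* and *Ikzf2* summed to between 458 and 478 in resting Tconvs and to at least 20635 in tTregs. Their sum was between 13240 and 17057 in resting iTregs and between 12534 and 12797 in restimulated iTregs, mostly *Il2ra*. In every iTreg group *Foxp3* was above resting Tconvs but below tTregs, and *Ikzf2* was no higher than in resting Tconvs. The iTregs thus carried only part of the Treg markers. Markers of other cell types were low but moved between groups. The 5 B cell markers summed to between 20.2 and 31.9 in resting Tconvs, 128 and 143 in resting tTregs and 56.9 and 63.7 in resting iTregs, mostly *Cd79b* in tTregs, with *Pax5* at 0 in all 24 libraries. The 3 NK cell markers summed to between 19.3 and 30.9 in resting Tconvs, mostly *Klrb1c*, and were at 0 in all tTreg and iTreg libraries. Both CD8 T cell markers, mostly *Cd8b1*, summed to between 223 and 236 in resting Tconvs, 157 and 178 in resting tTregs and 99.1 and 122 in resting iTregs. The 6 myeloid markers summed to at most 25.5 and the 3 mast cell and basophil markers to at most 1.60.

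The 3 genes had 2 patterns. *Ms4a4b* and *Ms4a6b* were lowest in iTregs, and their normalized counts were higher in Tconvs than in tTregs, a step that at rest turned with quantile normalization (log2 fold changes of tTregs over Tconvs of 0.058 and 0.27) and for *Ms4a6b* did not pass the test. *Ms4a4c* was high in activated Tconvs alone and kept within a narrow range in the other 7 groups. Across the 24 libraries the highest value of *Ms4a4b* was 61.3 times the lowest, that of *Ms4a4c* 41.0 times and that of *Ms4a6b* 9.35 times. As bulk RNA was measured, fewer cells expressing a gene and less RNA per cell cannot be told apart. Where groups are said below not to overlap, the share of all genes that do the same was not counted.

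*Ms4a4b* was at 20066, 18201 and 20754 normalized counts in resting Tconvs and at 17559.5, 15707 and 18127 in activated Tconvs. In tTregs it was at 14892, 12158 and 12036 at rest and at 6197, 8799 and 6376 after activation. Resting iTregs had 1868, 1899.7 and 2549. Each of these 5 groups lay wholly above the next. In resting Tconvs 99.5% of the genes above 0 had a lower mean than *Ms4a4b*, and in resting iTregs 93.6% did, which compares genes without regard to their length. In restimulated iTregs *Ms4a4b* was at 422, 338 and 389.6, with the ORAI inhibitor at 1483, 1730.4 and 1537, and with CsA at 1538, 1582 and 1363. The inhibitor groups overlapped each other and lay between resting and restimulated iTregs with no overlap on either side.

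*Ms4a6b* had almost the same order. It was at 18446, 17781 and 18961 in resting Tconvs and at 19242, 17709 and 20832 in activated Tconvs, which overlap. In resting tTregs it was at 16770.0, 13173 and 12593, in activated tTregs at 7031, 10509.9 and 6992, and in resting iTregs at 3893, 3991 and 5225, each wholly below the group before. Restimulated iTregs had 2556, 2228 and 2327, those with the ORAI inhibitor 3282, 3779 and 3254, and those with CsA 3099, 3140.4 and 2867. No library of these 3 groups overlapped another group, and all were below resting iTregs.

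*Ms4a4c* was at 2767, 2468 and 2977 in activated Tconvs, from where it dropped to 226, 163 and 189 in resting tTregs, the next group. Resting Tconvs had 147, 149 and 196, activated tTregs 129, 159 and 129, and resting iTregs 121, 121 and 168. Restimulated iTregs had 84.6, 74.0 and 72.7, those with the ORAI inhibitor 126.5, 155 and 169, and those with CsA 159, 142 and 150.3. Of the neighbors in this order, only activated Tconvs at the top and restimulated iTregs at the bottom were free of overlap with the next group.

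**Figure D1:**
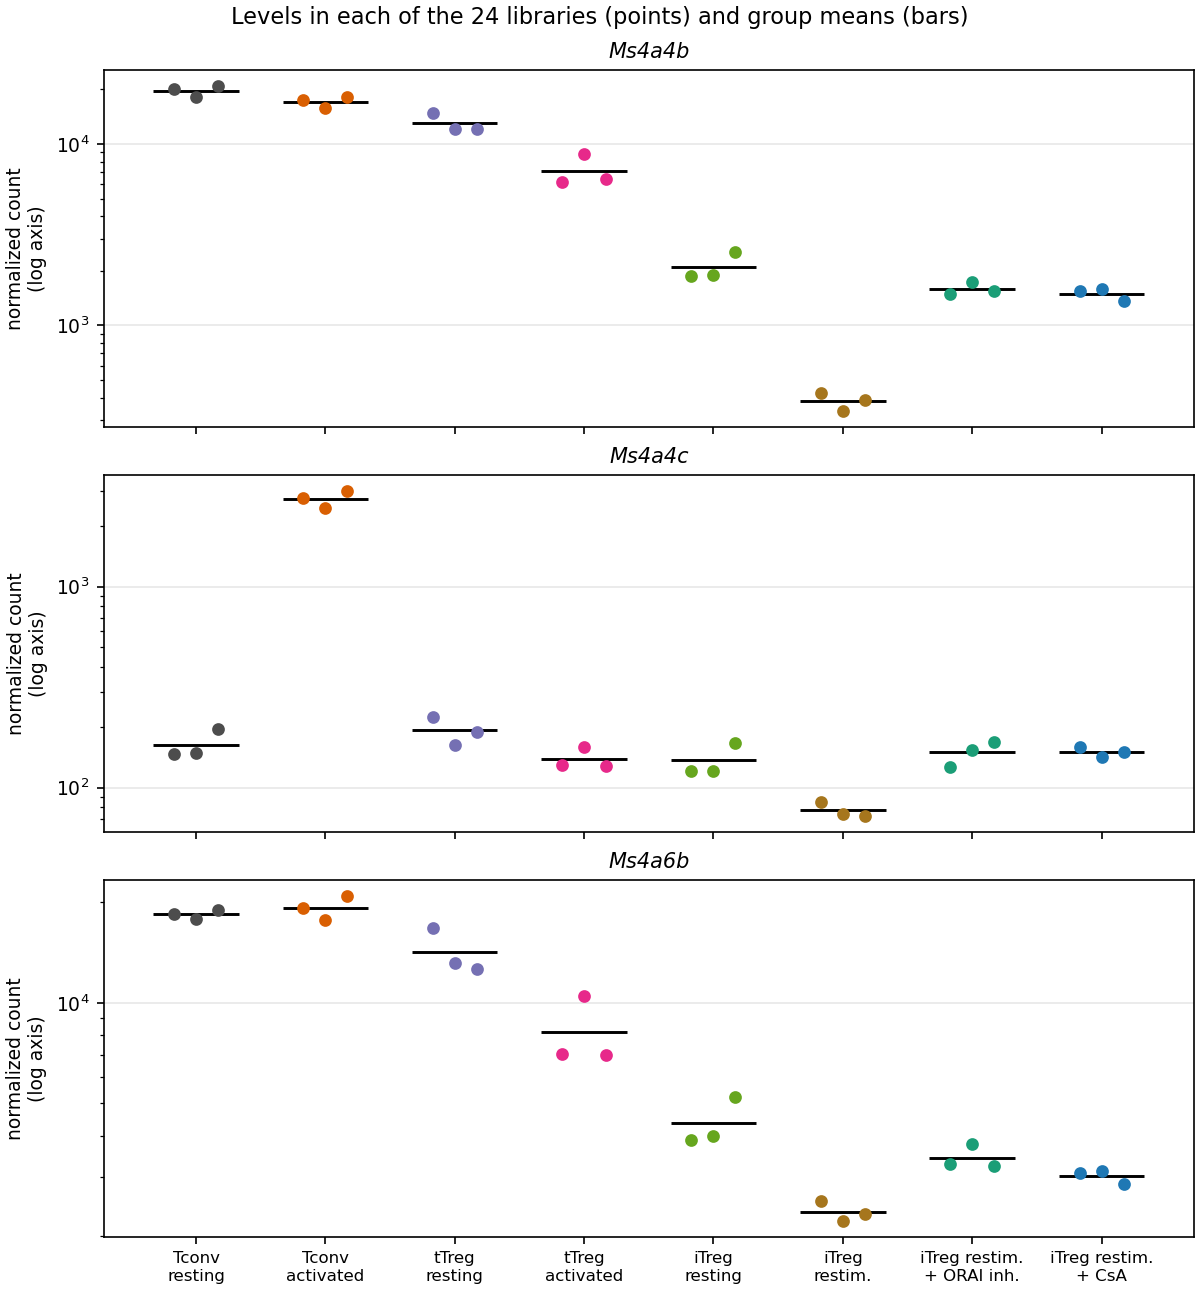
Normalized counts (log axis, with a range of its own in each panel) of the 3 genes in the 24 libraries, points being libraries and bars group means (n = 3). The points of *Ms4a4b* and *Ms4a6b* are lower in iTregs than in Tconvs and tTregs and lowest in restimulated iTregs (the order of resting Tconvs and tTregs turns with quantile normalization), and *Ms4a4c* stands at 2468 to 2977 in activated Tconvs and at 226 or less elsewhere.

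Between genes, levels can be set side by side only per length. Per kb of the RefSeq transcript (1259, 1723 and 1687 bases for *Ms4a4b*, *Ms4a4c* and *Ms4a6b*), the mean level in resting Tconvs was 15626 for *Ms4a4b*, 95.2 for *Ms4a4c* and 10905 for *Ms4a6b*. With the longest coding transcript of GENCODE (4750, 1723 and 2680 bases) it was 4142, 95.2 and 6864. *Ms4a4c* was the lowest with either length, while the order of *Ms4a4b* and *Ms4a6b* turned with the choice of transcript.

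The comparison of activated with resting cells asks how TCR stimulation changed the genes in Tconvs and in tTregs. In Tconvs *Ms4a4c* rose 16.7-fold, a log2 fold change of 4.06 (standard error 0.16, adjusted p = 3.12e-11, limma), the mean going from 164 ± 27.5 to 2737 ± 256 normalized counts (SD, n = 3). *Ms4a4b* and *Ms4a6b* did not pass the test in Tconvs, with log2 fold changes of -0.20 (standard error 0.14, adjusted p = 0.248) and 0.06 (standard error 0.16, adjusted p = 0.747, and -0.042 with quantile normalization). So 1 of the 3 genes changed, where 50.2% of the 11495 genes tested did, 24.5% rising and 25.7% falling. Here a change means a log2 fold change over 0.5 in size with an adjusted p under 0.05.

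In tTregs the 2 abundant genes fell. *Ms4a4b* went from 13029 ± 1615 to 7124 ± 1454 normalized counts, a log2 fold change of -0.88 (standard error 0.14, adjusted p = 0.000379), and *Ms4a6b* from 14179 ± 2263 to 8177 ± 2020, a log2 fold change of -0.81 (standard error 0.16, adjusted p = 0.00134). Without the libraries of replicate 1, *Ms4a6b* was at -0.59 with an adjusted p of 0.0509. *Ms4a4c* was at -0.46 (standard error 0.16, adjusted p = 0.0399), short of the fold change required, and without the libraries of replicate 2 it passed, at -0.67 (adjusted p = 0.0307). Of all genes tested, 21.9% changed, 11.9% rising and 10.0% falling. Within each state the tTreg library with the highest level of *Ms4a4b* and *Ms4a6b* was also the deepest, with 9688361 reads (resting replicate 1) and 9893053 reads (activated replicate 2), and the part of depth in the result was not tested.

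An interaction term asked whether Tconvs and tTregs responded unequally, and all 3 genes passed, with a response more positive in Tconvs than in tTregs. The difference was 4.52 on the log2 scale for *Ms4a4c* (standard error 0.23, adjusted p = 2.22e-09), 0.87 for *Ms4a6b* (standard error 0.22, adjusted p = 0.00623) and 0.68 for *Ms4a4b* (standard error 0.21, adjusted p = 0.016). Of the 11495 genes 34.7% passed, 17.0% being more positive in Tconvs and 17.7% in tTregs. For *Ms4a4b* and *Ms4a6b* the call was lost without the libraries of replicate 1, at 0.49 (adjusted p = 0.167) and 0.65 (adjusted p = 0.0909), and for *Ms4a4b* also without those of replicate 3, at 0.66 (adjusted p = 0.0638).

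Between resting cells, the comparison asks how far iTregs and tTregs carry the level of Tconvs. In resting iTregs *Ms4a4b* was at 0.106 times its level in resting Tconvs, a log2 fold change of -3.24 (standard error 0.14, adjusted p = 3.74e-11), and *Ms4a6b* at 0.236 times, a log2 fold change of -2.09 (standard error 0.16, adjusted p = 1.34e-08). Against resting tTregs they were at -2.64 (adjusted p = 4.56e-10) and -1.70 (adjusted p = 1.53e-07), and all 3 iTreg libraries were below every tTreg and Tconv library. *Ms4a4c* did not pass in either comparison, at -0.27 (adjusted p = 0.155) against Tconvs and at -0.498 (adjusted p = 0.0127) against tTregs, just short of the fold change required. Of all genes tested, 63.6% differed between iTregs and Tconvs, 32.8% being higher and 30.8% lower in iTregs, and 63.4% between iTregs and tTregs, 32.3% being higher and 31.1% lower. The resting iTreg libraries entered the choice of the genes, and these p-values do not allow for it. The B cell, NK cell and CD8 T cell markers given above differed between the same groups, and their part in these results was not tested.

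Between resting tTregs and resting Tconvs *Ms4a4b* had a log2 fold change of -0.60 (standard error 0.14, adjusted p = 0.00298), but quantile normalization, which gives all libraries the same distribution of values, turned it to 0.058 (adjusted p = 0.787). *Ms4a6b* was at -0.39 (standard error 0.16, adjusted p = 0.0528, and 0.27 with quantile normalization), and *Ms4a4c* at 0.23 (standard error 0.16, adjusted p = 0.254). The background was 38.6% of genes changed, 20.5% higher and 18.2% lower in tTregs. The direction for *Ms4a4b* and *Ms4a6b* in this comparison thus depended on how the libraries were scaled.

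**Figure D2:**
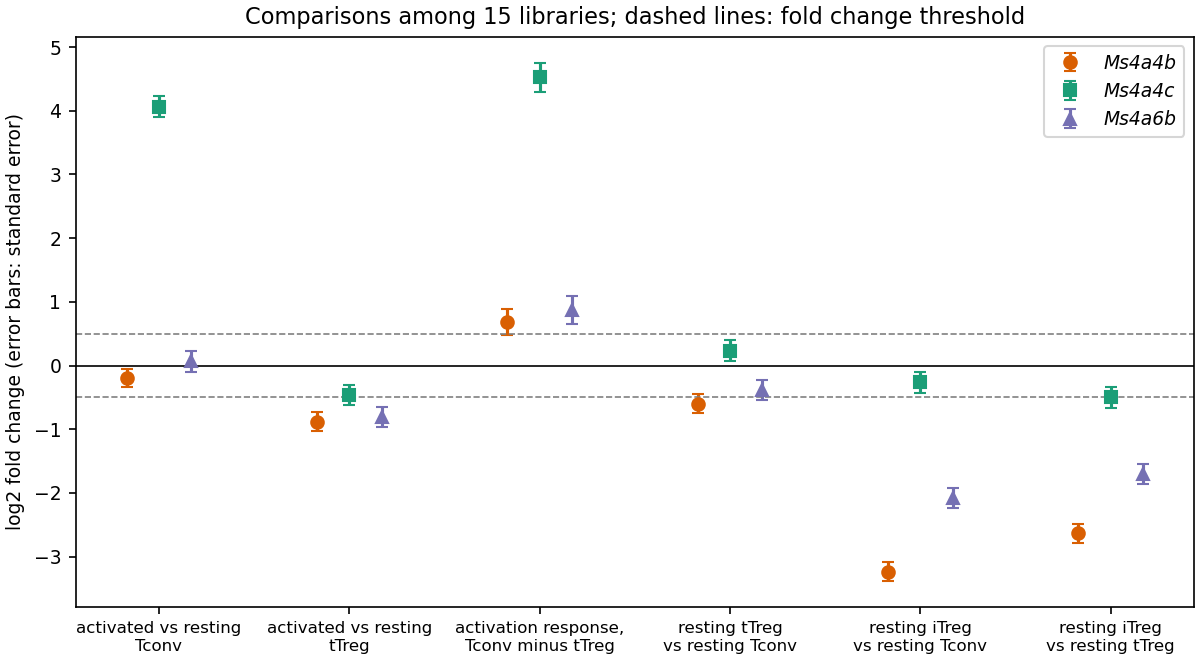
Log2 fold changes of the 3 genes in the 6 comparisons among the 15 libraries of Tconvs, tTregs and resting iTregs, points being the estimates, bars their standard errors and dashed lines the threshold of 0.5 in either direction. The highest values are the activation response of *Ms4a4c* in Tconvs, 4.06, and its difference from the response in tTregs, 4.52. The lowest are those of resting iTregs, with *Ms4a4b* at -3.24 against Tconvs and -2.64 against tTregs, and *Ms4a6b* at -2.09 against Tconvs.

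Restimulation of iTregs, and its blockade, are the comparisons that led to the choice of the genes, and their values are described here. On restimulation *Ms4a4b* went from 2106 ± 385 to 383 ± 42.1 normalized counts (SD, n = 3), a log2 fold change of -2.45 (standard error 0.11). *Ms4a6b* went from 4370 ± 742 to 2370.3 ± 168, a log2 fold change of -0.87 (standard error 0.10), and *Ms4a4c* from 137 ± 26.9 to 77.1 ± 6.55, a log2 fold change of -0.80 (standard error 0.15). Restimulated libraries thus stood at 18.2% ± 2.0 of the resting mean for *Ms4a4b*, at 54.2% ± 3.9 for *Ms4a6b* and at 56.4% ± 4.8 for *Ms4a4c* (SD, n = 3). All 3 genes were lower in every restimulated library than in every resting one. The share of all genes without such overlap was not counted. Of the 11105 genes tested in the 12 iTreg libraries, 12.8% changed, 6.70% rising and 6.13% falling.

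With the ORAI inhibitor, the levels were 75.2% ± 6.2 of the resting mean for *Ms4a4b*, 78.7% ± 6.8 for *Ms4a6b* and 110.0% ± 16.0 for *Ms4a4c*. With CsA, which keeps calcineurin from activating NFAT, they were 71.0% ± 5.5, 69.5% ± 3.4 and 110.1% ± 6.5. *Ms4a4b* and *Ms4a6b* thus stopped short of the level in resting iTregs, and every inhibitor library was below every resting library, whereas for *Ms4a4c* the inhibitor libraries overlapped the resting ones.

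Against restimulated iTregs, the log2 fold changes with the ORAI inhibitor were 2.05 for *Ms4a4b* (standard error 0.11), 0.95 for *Ms4a4c* (standard error 0.15) and 0.54 for *Ms4a6b* (standard error 0.10). With CsA they were 1.96, 0.96 and 0.36, with the same standard errors. Both comparisons share the 3 restimulated libraries. For each gene, the lowest inhibitor library was above the highest restimulated one, in comparisons that led to the choice of the genes. How many of all genes did so was not counted. Among all genes 3.30% changed with the ORAI inhibitor, 1.50% rising and 1.79% falling, and 2.92% with CsA, 1.57% rising and 1.35% falling.

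Set against the fall on restimulation, the inhibitors undid 83.7% ± 4.8 (ORAI inhibitor) and 80.3% ± 4.7 (CsA) of the log2 change of *Ms4a4b*, and 61.4% ± 13.9 and 41.1% ± 8.2 of that of *Ms4a6b* (SD, n = 3). For *Ms4a4c* the shares were 118% ± 26.6 and 119% ± 10.6. Between both inhibitors the log2 differences, ORAI inhibitor minus CsA, were 0.08 for *Ms4a4b* (standard error 0.11), -0.01 for *Ms4a4c* (standard error 0.15) and 0.18 for *Ms4a6b* (standard error 0.10), and 0.360% of all genes changed between them.

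Markers of another cell type moved along with these groups. The 5 B cell markers summed to 56.9 to 63.7 normalized counts in resting iTregs, 113 to 124 in restimulated iTregs, 73.5 to 89.8 with the ORAI inhibitor and 68.8 to 113 with CsA. Of these genes, *Ebf1* made up most of the rise, from at most 33.4 at rest to at least 89.9 after restimulation, and *Pax5* was at 0 in every library. The part of these markers in the levels of the 3 genes was not tested. *Ms4a1*, the CD20 gene, was at 0 in all 24 libraries.

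**Figure D3:**
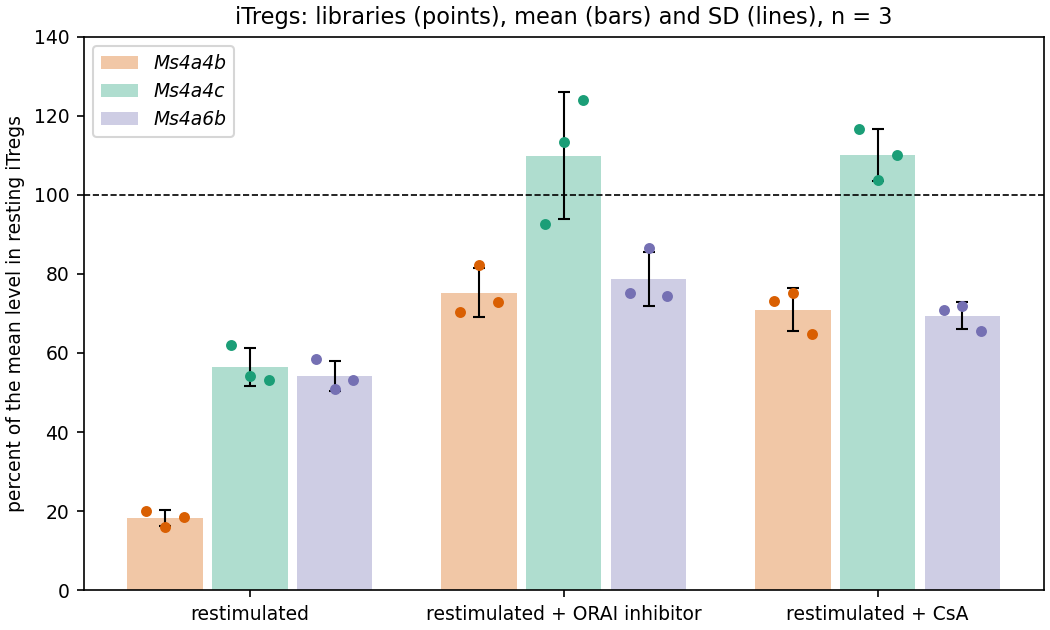
Level in restimulated iTregs, alone or with an inhibitor, as a percentage of the mean of resting iTregs (dashed line at 100), points being libraries, bars means and lines the SD (n = 3). *Ms4a4b* is at 16.1 to 20.0% after restimulation and at 64.8 to 82.2% with either inhibitor, and *Ms4a4c* with an inhibitor is at 92.6 to 124%.

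The drop on restimulation was deeper for *Ms4a4b* than for *Ms4a6b*, which can be read within each library, where a size factor cancels. Resting iTregs had 48.1 ± 0.61 normalized counts of *Ms4a4b* for every 100 of *Ms4a6b* (SD, n = 3), and restimulated iTregs 16.1 ± 0.84. With the ORAI inhibitor the ratio was 46.1 ± 1.1 and with CsA 49.2 ± 1.5, so that the libraries with CsA, from 47.6 to 50.4, overlapped the resting ones, from 47.6 to 48.8. Tconvs and tTregs kept a higher ratio, 107 ± 3.9 in resting and 89.0 ± 2.1 in activated Tconvs, and 92.2 ± 3.4 in resting and 87.7 ± 3.8 in activated tTregs. The lowest of these 12 libraries was at 83.7. As lengths do not enter, the ratio compares groups and not the abundance of both transcripts.

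**Figure D4:**
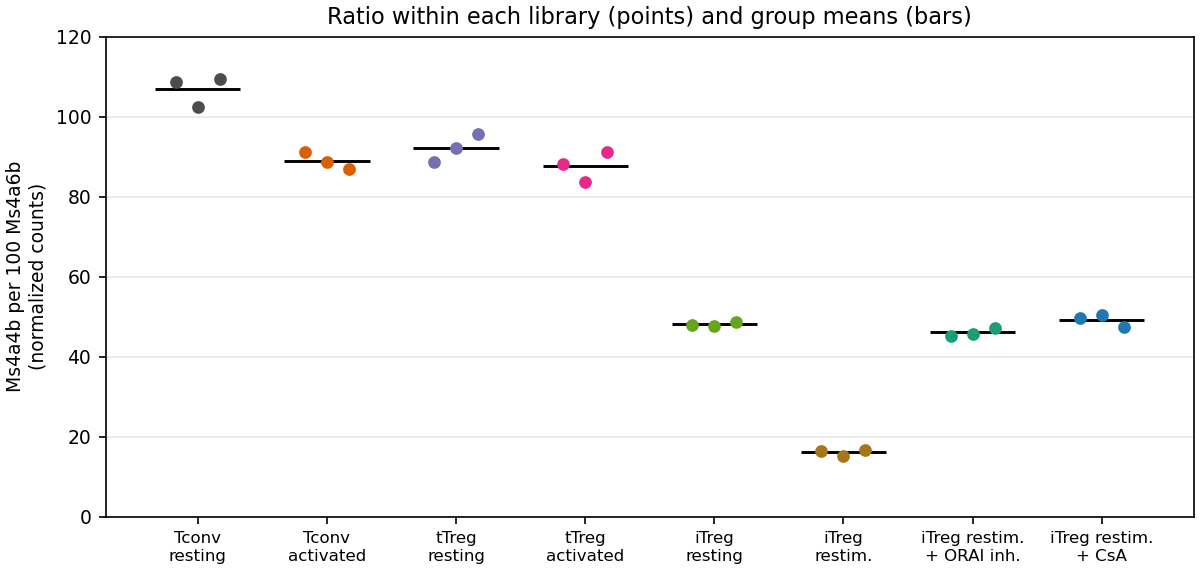
Normalized counts of *Ms4a4b* per 100 of *Ms4a6b* in each library, points being libraries and bars group means (n = 3). Tconvs and tTregs are at 83.7 to 109, iTregs at rest or with an inhibitor at 45.2 to 50.4, and restimulated iTregs at 15.2 to 16.7.

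*Ms4a4c* moved apart from its neighbor *Ms4a4b* in the same way of reading. Per 100 normalized counts of *Ms4a4b* there were 0.832 ± 0.106 of *Ms4a4c* in resting Tconvs and 16.0 ± 0.40 in activated Tconvs, against 1.48 ± 0.12 and 1.97 ± 0.15 in resting and activated tTregs. Resting iTregs had 6.48 ± 0.10 and restimulated iTregs 20.2 ± 1.6, where both genes were at their lowest. With the ORAI inhibitor this ratio was 9.5 ± 1.3 and with CsA 10.1 ± 1.1, between resting and restimulated iTregs.

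Of the 16 other genes of the family, 5 were at 0 in all 24 libraries, among them *Ms4a1*, 7 more never reached 10 normalized counts, among them *Ms4a2*, and 4 did. The 4 detected genes, *Ms4a4a*, *Ms4a4d*, *Ms4a6c* and *Ms4a6d*, are those nearest to the 3 genes described here. *Ms4a6c*, which lies between *Ms4a4b* and *Ms4a6b*, was at 130.4 to 153 normalized counts in resting Tconvs, 72.7 to 102 in activated Tconvs, 132 to 168 in resting tTregs and 68.7 to 95.6 in activated tTregs. It fell on activation in Tconvs by 0.71 on the log2 scale (adjusted p = 0.0032) and in tTregs by 0.95 (adjusted p = 0.00114). Without the libraries of replicate 3, the value in Tconvs was -0.61 (adjusted p = 0.0584).

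In resting iTregs *Ms4a6c* was at 49.4 to 68.5, lower than in Tconvs by a log2 fold change of -1.18 (adjusted p = 2.86e-05), and on restimulation it fell to between 18.2 and 27.2, a log2 fold change of -1.38 (adjusted p = 0.00111). With the ORAI inhibitor it was at 26.5 to 48.4 and with CsA at 25.6 to 43.2, with log2 fold changes over restimulated iTregs of 0.75 (adjusted p = 0.101) and 0.56 (adjusted p = 0.221). Of its exon bases 53.1% are shared with *BE692007* on the other strand, and without strand the reads of both cannot be told apart.

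*Ms4a4a*, the gene on the far side of *Ms4a4c*, rose with it in activated Tconvs, from 2.06 to 4.69 normalized counts at rest to 21.5 to 31.8, a log2 fold change of 2.73. It entered the fit through groups where it is high, so no test is given for this rise. At rest 1 of the 3 Tconv libraries was below the floor of 3 reads. In tTregs *Ms4a4a* was at 15.6 to 47.2 at rest, above resting Tconvs by 2.59 on the log2 scale, and at 41.7 to 58.7 after activation. The difference in activation response was 1.81. It was 1.18 without replicate 1, 1.83 without replicate 3 and 1.48 with quantile normalization.

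*Ms4a4d* was at 19.3 to 33.8 in resting Tconvs and at no more than 8.16 in resting tTregs and 6.07 in resting iTregs. It reached 10 normalized counts in 6 libraries, all of Tconvs, and so entered the fit through the group where it is high, and no test against Tconvs is given. *Ms4a6d* was between 13.7 and 103 in all libraries and was lower in resting iTregs than in resting Tconvs by a log2 fold change of -1.10 (adjusted p = 0.00799), which was -0.61 (adjusted p = 0.158) without replicate 1. Counted together, the 4 detected genes gave 1 rise and 1 fall on activation of Tconvs and 1 fall in tTregs, where 50.2% and 21.9% of all genes changed, with median log2 fold changes of 0.01 and -0.69. The rise is that of *Ms4a4a*, which entered the fit through groups where it is high. *Ms4a6c* and *Ms4a6d* reached 10 normalized counts in all 24 libraries, *Ms4a4a* in 10 and *Ms4a4d* in 6, so these counts do not stand for the family.

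A gene inside the cluster between *Ms4a6c* and *Ms4a6b*, *Gm8369*, was added after its values were seen, so no test is given for it. Its level stepped down like *Ms4a4b* from 4071 to 4293 normalized counts in resting Tconvs to 418 to 498 in resting iTregs, a log2 fold change of -3.23. On activation *Gm8369* fell by 1.07 on the log2 scale in both Tconvs and tTregs. Restimulation left it at 396 to 483, a log2 fold change of -0.04. Outside the cluster, the 5 nearest genes of the table on each side held 5 that were tested. Their median log2 fold change on restimulation was -0.04. Between resting iTregs and Tconvs 3 were higher and 1 lower, where 32.8% of all genes were higher and 30.8% lower. *Tmem109*, one of them, rose on activation in Tconvs by 1.32 (adjusted p = 5.66e-09) and in tTregs by 0.95 (adjusted p = 2.54e-06) on the log2 scale.

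**Figure D5:**
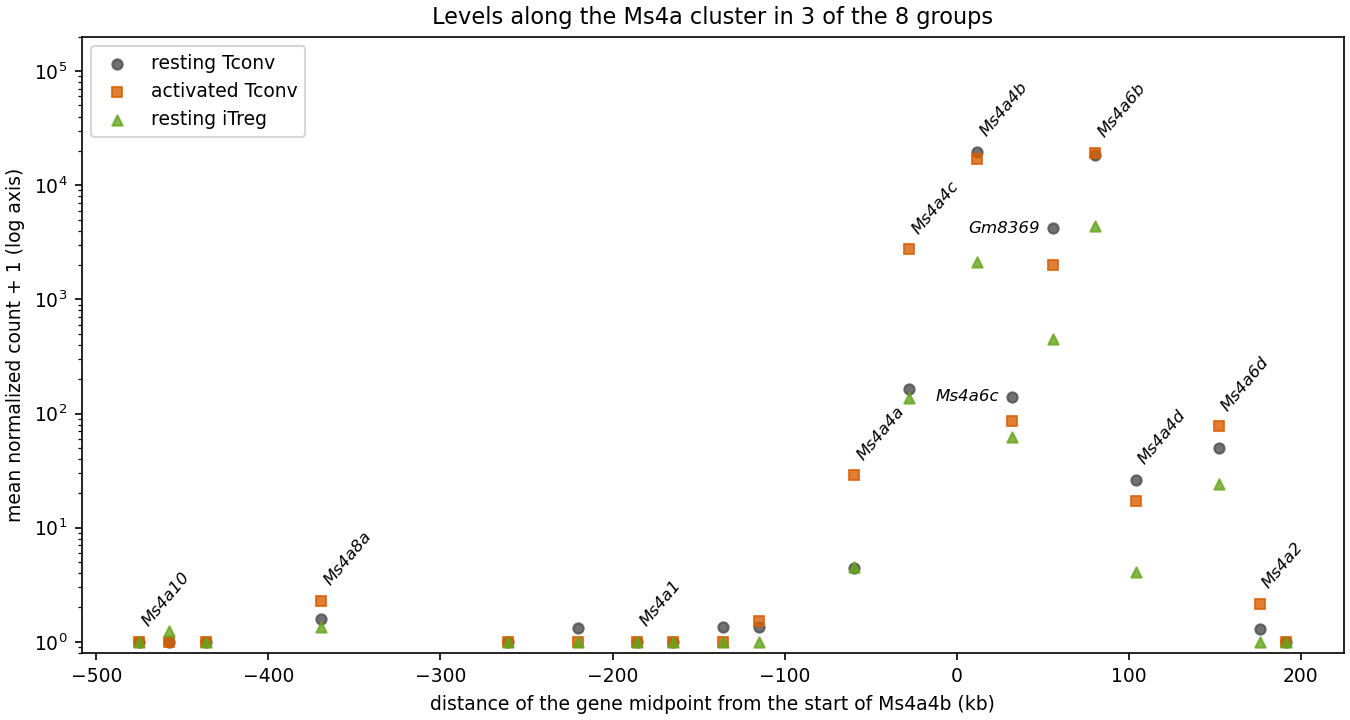
Mean normalized count plus 1 (log axis, not per length) of the *Ms4a* genes and *Gm8369* in 3 of the 8 groups, placed by the distance of the gene's midpoint from the start of *Ms4a4b* in kb. The genes above 10 normalized counts in one of these groups stand together around *Ms4a4b*, from *Ms4a4a* to *Ms4a6d*, and *Ms4a1* is at 0.

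*Tnfrsf18* encodes GITR, the receptor that MS4A4B is known to bind. Its level was lowest in resting Tconvs, at 1109 to 1269 normalized counts in resting Tconvs, 8533 to 11459 in resting tTregs and 6145 to 7743 in resting iTregs. The log2 fold change over Tconvs was 3.04 in tTregs (adjusted p = 7.78e-11) and 2.53 in iTregs (adjusted p = 1.77e-10). On activation it rose in Tconvs to 4903 to 5569, a log2 fold change of 2.14 (adjusted p = 2.89e-09), and in tTregs it was at 10610.2 to 14165, a log2 fold change of 0.30 (adjusted p = 0.0894).

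Restimulated iTregs had 7525 to 9273 of *Tnfrsf18*, a log2 fold change of 0.26 (adjusted p = 0.0508), those with the ORAI inhibitor 6174 to 7081 and those with CsA 6521 to 7232. *Traf5*, an adaptor of GITR and related receptors, fell on activation of Tconvs by 1.41 (adjusted p = 3.73e-06) and on restimulation of iTregs by 0.67 (adjusted p = 0.000952) on the log2 scale. Of the 5 genes of this list, the ligand *Tnfsf18* did not pass the filter. Of the other 4, 1 rose and 1 fell on activation of Tconvs, where 50.2% of all genes changed, and the median log2 fold change was 0.28 in Tconvs and 0.25 in tTregs.

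The 3 genes were set beside 2 more lists. Of 8 tetraspanins, another family that crosses the membrane 4 times, 7 were tested in the 15 libraries, and between resting iTregs and Tconvs 2 were higher and 3 lower, where 63.6% of all genes differed, with a median log2 fold change of -0.40. Of 10 genes of naive T cells, such as *Il7r* and *Klf2*, all 10 were lower in resting iTregs than in resting Tconvs, where 30.8% of all genes were, with a median of -2.41 against 0.02 over all genes. On activation 1 rose and 5 fell in Tconvs, where 25.7% of all genes fell, and 1 rose and 5 fell in tTregs, where 10.0% did. On restimulation of iTregs 3 of the 10 fell, where 6.13% of all genes did, with a median of -0.24 against -0.01 over all genes.

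Over the 24 libraries *Ms4a4b* and *Ms4a6b* had a Pearson r of 0.974 on the log2 scale, which made *Ms4a6b* the second most alike of 11725 genes to *Ms4a4b*. *Ms4a4c* had an r of 0.581 with *Ms4a4b* and 0.625 with *Ms4a6b*. Libraries of a group share their cell type and state, so these values describe mainly 8 groups. Most like *Ms4a4b* was *Ifit1bl1*, with r = 0.975, followed after *Ms4a6b* by *Mbnl1*, a regulator of splicing (0.966), *Ctss*, the protease cathepsin S (0.965), and *Slamf6*, a receptor of the SLAM family (0.964).

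*Slamf6* went from a mean of 533 normalized counts in resting iTregs to 159 on restimulation, and was at 300.4 with the ORAI inhibitor and 210.3 with CsA. *Ctss* went from 756 to 527 and was at 1097 and 887. *Ifit1bl1* went from a mean of 21.8 to 1.12, and was at 12.9 and 10.8. Its restimulated mean is below the floor of 3 reads, worth 2.72 to 3.36 normalized counts in those libraries. *Mbnl1* went from 9577 to 7281 and was at 8817 and 8182. With either inhibitor *Ctss* was thus above its resting mean, and the others stood between their resting and restimulated means. The same libraries entered the choice of these genes by likeness, so the values are a description only.

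Among the 5 genes most like *Ms4a6b* were *Mbnl1* (r = 0.982), *Cd247*, the ζ chain of the TCR complex (0.982), *Pecam1*, the adhesion molecule CD31 (0.974), and *Ms4a4b*. Most like *Ms4a4c* were *Scfd1*, a factor of vesicle transport (0.941), *Sp110*, a protein of nuclear bodies (0.932), *Sema4b*, a membrane semaphorin (0.922), *Rab19* (0.911) and *Mettl22* (0.908). Each of these 5 had its highest mean in activated Tconvs, such as *Sp110* at 2494 normalized counts there against 1046 to 1302 in the other groups. This follows from their choice by likeness to *Ms4a4c*, which is high there alone.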

How the data were processed

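RNA-seq libraries of 24 T cell samples in 8 groups were used. The authors trimmed reads with cutadapt 1.18, aligned them to mm10 with STAR 2.5.3 and counted them with RSEM 1.3.0 (versions from the submitters' processing notes). The deposited values are a signal, the count of a gene scaled by a size factor of its library. The smallest value above 0 of a library stood for 1 read, which made 100% of values whole within 0.01. Genes that reached 10 normalized counts in 3 or more libraries entered limma 3.58.1 (R 4.3.3, trend) on log2(normalized count + 1), the scale of all fold changes, in a fit of 15 libraries (Tconvs, tTregs, resting iTregs) and a fit of the 12 iTreg libraries, with Benjamini-Hochberg adjustment and the thresholds of the study. The fits were tested on simulated reads. Alternatives were other pseudocounts, filters, scalings and sample sets, a replicate block, each replicate left out, and edgeR 4.0.16 and DESeq2 1.42.0 on recovered reads. The text names the 3 genes, genes of the lists that were detected or called, and the 5 genes with the highest Pearson r to each, apart from items not reported here. Genes and lists were chosen with earlier results of these data known. Replicates differed by 2.85 to 39.4 times the counting variance, so none was a copy. Floors cover counting error only. Positions come from GENCODE for GRCm38, in an older release than the study's, which held 98.9% of the gene names. The study's chromatin data were not analysed here.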

Additional observations from a re-analysis of the deposited data

Results flagged for a closer look

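The response to activation differed between Tconvs and tTregs for all 3 genes, as tested by the interaction in the limma fit of 15 libraries. *Ms4a4c* had the largest difference of the 3, 4.52 on the log2 scale. All 3 activated Tconv libraries were above all 3 resting ones, while the libraries of activated and resting tTregs did not overlap either and were in the opposite order. For *Ms4a6b* the difference was 0.873 and for *Ms4a4b* 0.682, the tTreg libraries falling on activation without overlap. The share of all genes without such overlap was not counted, and 34.7% of all genes passed the interaction. Without the libraries of replicate 1 these were no longer called, at 0.65 (adjusted p = 0.0909) for *Ms4a6b* and 0.49 (adjusted p = 0.167) for *Ms4a4b*, nor was *Ms4a4b* without those of replicate 3, at 0.66 (adjusted p = 0.0638). The groups held too few samples for a search for single outlying libraries.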

How the results depend on the processing

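For the 3 genes, quantile normalization turned the direction of *Ms4a6b* in activated against resting Tconvs (-0.042) and of *Ms4a4b* (0.058) and *Ms4a6b* (0.27) in resting tTregs against Tconvs. It moved the median of all genes to -0.12 between iTregs and Tconvs and -0.10 between iTregs and tTregs. *Ms4a4c* in iTregs against tTregs passed the fold change threshold with a pseudocount of 0.1 (-0.50) and quantile normalization (-0.60), and ranged from -0.66 to -0.30 with each replicate number left out. With replicates left out, *Ms4a6b* ranged from -1.05 to -0.59 and *Ms4a4c* from -0.67 to -0.29 on activation of tTregs, the difference in response from 0.49 to 0.90 for *Ms4a4b* and 0.65 to 1.15 for *Ms4a6b*, and *Ms4a6b* in resting tTregs against Tconvs from -0.51 to -0.29. The log2 fold change with the ORAI inhibitor then ranged from 1.89 to 2.16 for *Ms4a4b*, 0.82 to 1.13 for *Ms4a4c* and 0.42 to 0.62 for *Ms4a6b*. The cause was not tested in these cases. Other values of the 3 genes kept their direction and their side of the threshold, or moved by less than the spread between replicates.

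Counts of genes changed moved most in iTregs. The stricter filter of 100 normalized counts, which tests fewer genes, gave 878 on restimulation, where 1425 were called, and 213 with CsA, where 324 were. With all 24 libraries in one fit, 232 (ORAI inhibitor, 366 in the 12 libraries), 187 (CsA) and 10 genes (ORAI inhibitor against CsA, 40 in the 12 libraries) changed. With replicates left out, fewer libraries being tested, these counts ranged from 170 to 324, 124 to 296 and 4 to 41. On recovered reads, edgeR called 1423 genes and DESeq2 1318 on restimulation.

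The deviations of libraries with the same replicate number had correlations of -0.425 to -0.129 in tTregs and 0.0452 to 0.239 in resting and restimulated iTregs, and in no comparison was every pair above 0.1, so the numbers were not taken to pair samples. As a hint from the data and not from the design, all 6 libraries correlated best with their own number in the activation of Tconvs and the restimulation of iTregs, and 0 of 6 did in the activation of tTregs. With the replicate block no call of the 3 genes changed: *Ms4a4b* kept its log2 fold change of -0.88 on activation of tTregs (adjusted p = 0.00118), and 1500 genes changed on restimulation, 420 with the ORAI inhibitor and 372 with CsA. Depth limits *Ms4a4a* and *Ms4a4d*, which had values below the floor of 3 reads.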
